A study of Homo sapiens with 2 samples.

Results

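The 34 genes described here encode proteins of homologous recombination, of the Fanconi anemia pathway and of the checkpoint and mismatch repair steps that work with them. They were chosen by gene name from a list of well-known members of these pathways, a rule that uses no measured value, although the list was drawn up with earlier results of these data known. All 34 were found among the 61806 genes of the count table, and all 34 also had a deposited FPKM value (fragments scaled by gene length and library size). HEL is a human erythroleukemia cell line, here of the wild-type genotype. The cells were exposed for 24 h either to the compound L1 at 1 µM or to 0.5% DMSO, the solvent control, and poly(A) RNA from 1 library per condition was sequenced. The spread between cultures was therefore not measured. Statistical tests were not possible, and no difference below has a replicate check. All intervals are exact 95% Clopper-Pearson intervals of the split of a gene's counts between both libraries, and they cover counting error only. In RNA from a whole culture, fewer cells of one kind or cycle phase and less RNA per cell cannot be told apart.

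Homologous recombination repairs a DNA double-strand break by copying the sister chromatid. The broken ends are resected to single strands, BRCA2 with PALB2 prepares them for strand exchange, and helicases later take the joined molecules apart. The Fanconi pathway removes crosslinks between the strands, through a core complex that ubiquitinates the FANCD2 and FANCI clamp. The kinases ATM and ATR detect breaks and stalled forks and signal through CHEK2 and CHEK1 to halt the cell cycle. Many of these genes are known to be transcribed mainly in S phase, under E2F factors at the promoter, and inherited defects in several of them cause Fanconi anemia or predispose to cancer.

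The libraries held 32556872 counts for DMSO and 27135647 for L1. The counts were scaled by edgeR's TMM method, which set the effective size of the DMSO library at 1.16 times that of L1. Of all genes, 18123 had at least 10 counts in at least 1 library, and 12365 had at least 100, as did every one of the 34 repair genes. The erythroid regulator GATA1 had an FPKM of 131 in DMSO and 139 in L1, and the megakaryocytic integrin gene ITGA2B had 222 and 226. Other markers of these lineages moved more. The log2 ratios of L1 over DMSO of 10 erythroid markers had a median of 0.19 and ran from -0.50 to 1.78. Of 4 megakaryocytic markers 3 had at least 10 counts, with a median of -0.33, from -0.37 to 0.03. Of 10 markers of other cell types, 5 had 0 counts in both libraries, among them CD3E, CD3D, MS4A1 and EPCAM, and 3 had at most 5. The other markers, PECAM1 and LYZ, together had 5312 counts in DMSO and 3512 in L1.

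Promoter sequences are shown first for the members that hold an E2F site or a CHR element (cell cycle genes homology region), the letters through which S phase and G2/M genes are commonly controlled. The windows run from 250 bases before to 50 bases after the RefSeq start (GRCh38.p14), and 31 of the 34 members had one. The search used TTTGGCGC, TTTCGCGC, TTTCCCGC and TTTGGCGG for E2F and TTTGAA for CHR, on both strands. Of the members with such a match, the 5 with the lowest ratio of L1 over DMSO are printed 5′ to 3′ in the direction of transcription, with the matches in capitals and only as much of the window as holds them.
EXO1 (chr1:241848178-241848223, plus strand): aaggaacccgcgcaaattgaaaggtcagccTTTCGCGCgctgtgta
FANCC (chr9:95317728-95317959, minus strand): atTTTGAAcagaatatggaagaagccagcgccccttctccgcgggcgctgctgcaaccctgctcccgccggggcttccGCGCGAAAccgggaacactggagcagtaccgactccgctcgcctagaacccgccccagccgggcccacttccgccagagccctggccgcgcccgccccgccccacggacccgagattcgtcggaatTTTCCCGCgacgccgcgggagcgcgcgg
TOPBP1 (chr3:133661922-133661978, minus strand): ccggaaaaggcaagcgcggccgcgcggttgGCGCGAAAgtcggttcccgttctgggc
CLSPN (chr1:35769959-35770013, minus strand): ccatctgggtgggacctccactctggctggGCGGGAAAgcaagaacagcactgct
BRIP1 (chr17:61863743-61863778, minus strand): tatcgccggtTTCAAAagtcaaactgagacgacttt
The EXO1, TOPBP1 and CLSPN stretches carry an E2F match within 10 bases of the start, the BRIP1 stretch carries a CHR match far upstream, and FANCC carries both kinds. The RefSeq start used for FANCC lies inside the longer gene of GENCODE release 29.

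An E2F match stood in 7 of the 31 member promoters (22.6%), namely those of CLSPN, EXO1, FANCC, FANCD2, MSH6, TOPBP1 and XRCC2, against 3.43% of all 27305 promoters of that length. The CHR letters were found in 3 members (ATM, BRIP1 and FANCC), or 9.68%, against 15.4% of all promoters. CCAAT, the box bound by NF-Y, stood in 15 members (48.4%) against 35.7%. The ETS letters CCGGAAGT stood in BRCA2, FANCD2, PALB2 and RAD50 (12.9% against 4.44%), and the CRE letters TGACGTCA in EXO1, PMS2, RAD51C and XRCC2 (12.9% against 1.98%). Of the 7 members with an E2F match, 6 had a lower level in L1, and MSH6 had a log2 ratio of 0.11. Of all 34 members, 29 (85.3%) were lower, against 53.6% of all genes with at least 100 counts. The direction thus did not set the members with an E2F match apart from the other members. BRCA2 and RAD51AP1, the lowest ratios of the list, had no E2F or CHR match in these windows. A match is a description of letters and is not evidence that a factor binds there.

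Of the 34 repair genes, 29 (85.3%) were lower in L1, with a log2 ratio below 0 (28 when scaled by total counts, 26 with overlapping genes summed), where 50.4% of all genes with at least 10 counts and 53.6% of those with at least 100 lay below 0. The median over the members was -0.27, against -0.0040 and -0.028 over these same sets of genes. None of the 34 reached 2-fold in either direction. In the background, 4.83% of genes with at least 10 counts were at least 2-fold lower and 7.12% at least 2-fold higher, and with at least 100 counts these shares were 2.92% and 3.13%. At 1.5-fold, 4 members (11.8%) were lower, namely BRCA2, RAD51AP1, FANCB and EXO1, and 0 were higher. The background at 1.5-fold was 11.4% lower and 13.8% higher with at least 10 counts, and 8.22% and 7.38% with at least 100. The share of members at least 1.5-fold lower was thus near that of all genes, while no member was in the higher class.

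The counting interval lay wholly below 0 in 24 members (70.6%) and wholly above 0 in 3 (8.82%), and it included 0 in the other 7. Among all genes with at least 10 counts, 28.6% had an interval wholly below 0 and 26.8% wholly above 0, and with at least 100 counts these were 36.7% and 30.5%. Summed over the members, 81588 counts in DMSO stood against 57543 in L1, or 0.251% and 0.212% of each library. The log2 ratio of the sums was -0.29 (-0.31 to -0.28).

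**Figure D1:**
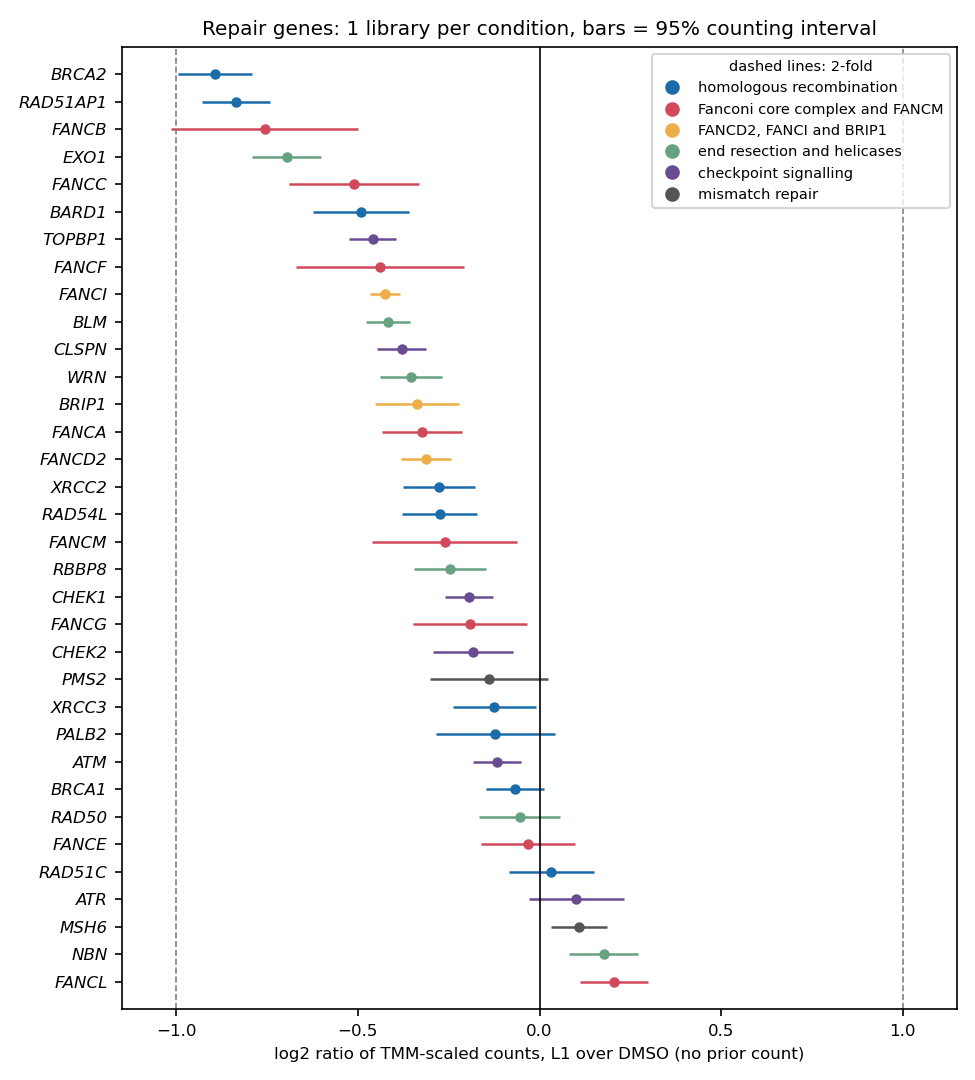
Log2 ratio of TMM-scaled counts, L1 over DMSO, for each of the 34 repair genes, coloured by role. Bars are 95% counting intervals from 1 library per condition, the solid line marks 0 and the dashed lines mark 2-fold. BRCA2 is lowest at -0.89, FANCL is highest at 0.21, and 29 of the 34 points lie left of 0.

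The homologous recombination genes comprised 9 members, of which 8 were below 0, with a median of -0.28. BRCA2 (chromosome 13, 32315474 to 32400266), a mediator of strand exchange, had 2471 counts in DMSO and 1147 in L1. Its FPKM was 5.39 and 2.90, and its log2 ratio was -0.89 (-0.996 to -0.79), so that the L1 level was 46.2% lower. RAD51AP1 (chromosome 12, 4538798 to 4560048), a cofactor that stimulates strand pairing, had 2841 and 1374 counts. Its FPKM of 35.0 in DMSO and 19.6 in L1 gave a log2 ratio of -0.83 (-0.93 to -0.74). Both genes were thus at little more than 50% of their control level. BARD1, which forms the ubiquitin ligase with BRCA1, had 1253 and 769 counts, a log2 ratio of -0.49 (-0.62 to -0.36).

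The rest of the recombination genes lay closer to 0. XRCC2, which helps to assemble the strand exchange filament, had 1989 and 1416 counts, and RAD54L, a motor protein that drives strand exchange, had 1873 and 1335, which gave log2 ratios of -0.28 for each. XRCC3, of the same function, had 1413 and 1118 counts (-0.12), and PALB2, the bridge between BRCA1 and BRCA2, had 691 and 548 (-0.12, with an interval from -0.29 to 0.04). BRCA1 itself (chromosome 17, 43044295 to 43170245) had 2758 and 2270 counts, a log2 ratio of -0.07 (-0.15 to 0.01). RAD51C, which forms complexes with XRCC3 and XRCC2, had 1251 and 1104 counts, a log2 ratio of 0.03 (-0.09 to 0.15). In this group BRCA2 thus lay well below 0, while the intervals of BRCA1, PALB2 and RAD51C included 0.

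The Fanconi core complex with its anchor FANCM gave 8 members, 7 of them below 0, with a median of -0.29. FANCB (chromosome X, 14835961 to 14873069), which supports the catalytic subunit of the core complex, had 374 and 191 counts, a log2 ratio of -0.76 (-1.02 to -0.50). FANCC had 680 and 412 counts (-0.51), and FANCF, an adaptor that joins subunits, had 399 and 254 (-0.44, from -0.67 to -0.21). FANCA had 1654 and 1141 counts (-0.32), while its direct partner FANCG had 771 and 583 (-0.19). FANCM, the translocase that brings the complex to DNA, was the lowest of the 34 in FPKM in DMSO (0.819) and had 496 and 357 counts (-0.26, from -0.46 to -0.06). FANCE, which contacts FANCD2, had 1063 and 897 counts and lay at -0.03 (-0.16 to 0.10). FANCL (chromosome 2, 58159243 to 58241372), the catalytic ubiquitin ligase of the complex, had 1855 and 1845 counts and the highest ratio of the 34, 0.21 (0.11 to 0.30). The complex was therefore not uniform: FANCB and FANCL, which bind each other, stood at opposite ends.

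FANCI and FANCD2, the substrates of the core complex, were among the more abundant members. Both were lower in L1, as was BRIP1. FANCI had 11993 and 7710 counts, the most of the 34, a log2 ratio of -0.42 (-0.47 to -0.38). FANCD2 had 4126 and 2867 counts, a log2 ratio of -0.31 (-0.38 to -0.24). BRIP1 (FANCJ), a helicase bound by BRCA1 that acts downstream of the clamp, had 1521 and 1039 counts, a log2 ratio of -0.34 (-0.45 to -0.22). The median of these 3 genes was -0.34.

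End resection and helicase genes gave 5 of 6 below 0 and a median of -0.30. EXO1 (chromosome 1, 241847967 to 241895148), the exonuclease of long-range resection, had 2619 and 1394 counts and an FPKM of 19.9 and 12.3, which gave a log2 ratio of -0.70 (-0.79 to -0.60). BLM, the helicase lost in Bloom syndrome, had 5446 and 3518 counts (-0.42, from -0.48 to -0.36), and WRN, that of Werner syndrome, had 2823 and 1906 (-0.35, from -0.44 to -0.27). RBBP8 (CtIP), which starts resection, had 1953 and 1420 counts, a log2 ratio of -0.25 (-0.35 to -0.15). RAD50 and NBN both belong to the MRN complex that senses breaks. RAD50 had 1431 and 1189 counts (-0.05, from -0.17 to 0.06), and NBN had 1833 and 1787 (0.18, from 0.08 to 0.27). The genes of long-range resection and unwinding were thus lower, while RAD50 and NBN lay near or above 0. MRE11, the nuclease of the MRN complex and not among the 34, had 3636 and 2608 counts, a log2 ratio of -0.27 (-0.34 to -0.19).

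Among the 6 checkpoint genes 5 were below 0, with a median of -0.19. TOPBP1, the activator of ATR, had 5082 and 3188 counts and a log2 ratio of -0.46 (-0.52 to -0.40). CLSPN (claspin), the mediator between ATR and CHEK1, had 4327 and 2869 counts and a log2 ratio of -0.38 (-0.45 to -0.31). CHEK1 had 4232 and 3190 counts (-0.19, from -0.26 to -0.13) and the highest FPKM of the members in L1, 20.8. CHEK2 had 1561 and 1187 counts (-0.18, from -0.29 to -0.07). The kinases that act above them lay nearer to 0, with ATM at 4220 and 3357 counts (-0.12, from -0.18 to -0.05) and ATR at 996 and 922 (0.10, from -0.03 to 0.23). The mediators of ATR signalling were thus lower than the kinase itself.

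Mismatch repair had 2 members. PMS2, an endonuclease subunit, had 712 and 558 counts, a log2 ratio of -0.14 (-0.30 to 0.02). MSH6, which recognises base mismatches, had 2881 and 2681 counts, a log2 ratio of 0.11 (0.03 to 0.19). MSH6, NBN and FANCL were the 3 members with an interval wholly above 0.

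Levels can be compared between genes only per length. The deposited FPKM of the members ran from 0.819 (FANCM) to 35.0 (RAD51AP1) in DMSO, with a median of 5.30, and from 0.524 (FANCB) to 20.8 (CHEK1) in L1, with a median of 4.77. BRCA2 was 17th of the members in DMSO and 24th in L1. Dividing the scaled counts by the FPKM gives the gene length behind each value. This length was a median of 1.44 times the exonic bases of GENCODE release 29, and 16 of 34 members had a length over 1.5 times as long. For FANCL it was 37726 bases, 15.6 times the 2412 exonic bases of that release. Per GENCODE exonic kilobase, FANCL stood 5th of the members in DMSO with a level of 24.0 (scaled CPM per kilobase, where CPM corrects for library size), against an FPKM of 1.54, and FANCI stood 1st with 48.3. The order of these genes thus rests on the gene models used, in FPKM and per exonic kilobase alike. The annotation used for counting is not given. Counts taken over a longer model would make the level per GENCODE kilobase too high.

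**Figure D2:**
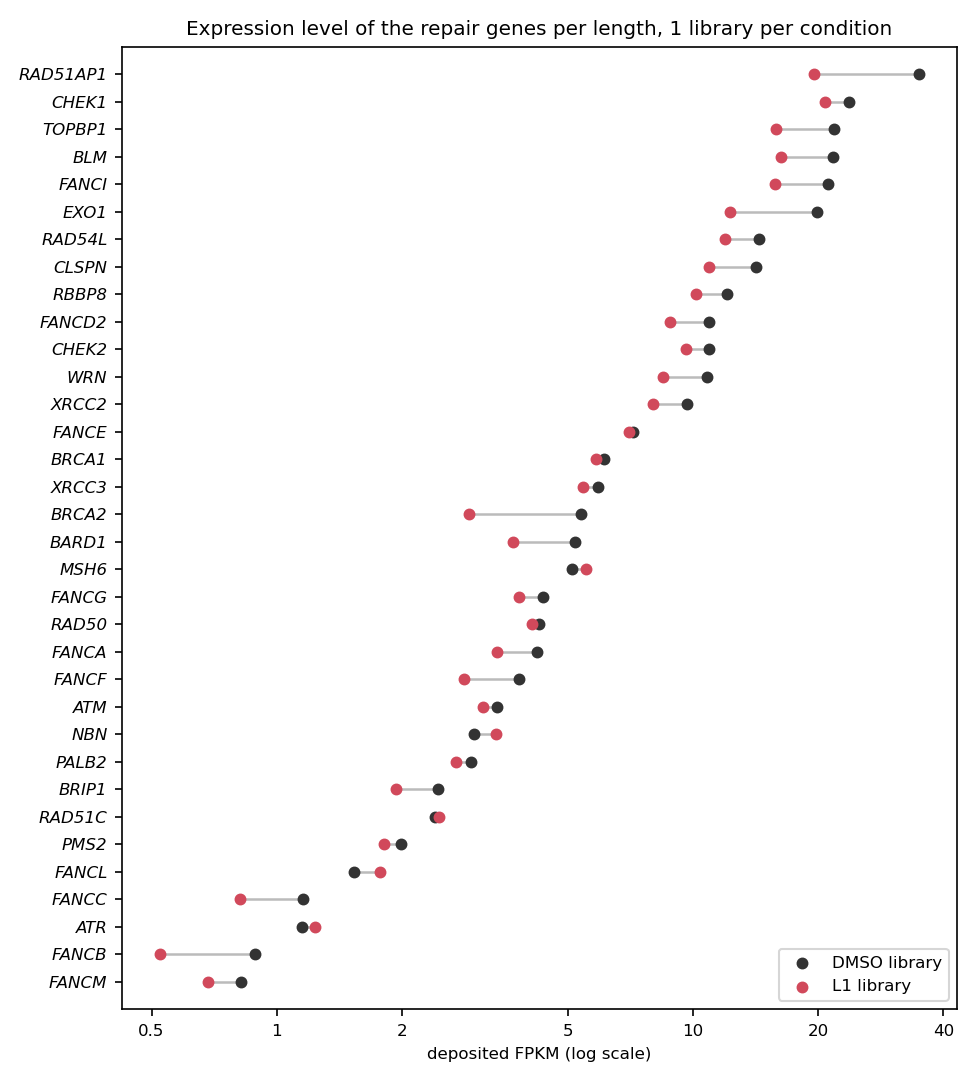
Deposited FPKM of the 34 repair genes in the DMSO library (dark) and the L1 library (red), on a log axis, ordered by the DMSO level. RAD51AP1 goes from 35.0 to 19.6 and BRCA2 from 5.39 to 2.90, and 29 of the 34 genes have their L1 point to the left of the DMSO point.

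The length of the gene model also moved with the ratio. All 5 members above 0 (RAD51C, ATR, MSH6, NBN and FANCL) had a deposited length over 1.5 times that of GENCODE release 29, as did 11 of the 29 members below 0. The 18 members at or under 1.5 times all lay below 0, with a median log2 ratio of -0.34, and the 16 members over it had a median of -0.12. The threshold was chosen after these values were seen. Spearman's rho between the length ratio and the log2 ratio was 0.38 over the 34 genes, which share both libraries. Between the exonic level per kilobase in DMSO and the log2 ratio it was -0.15, and these measures share the DMSO counts. The part of the longer gene models in the ratios was not tested.

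Several members act in pairs, and 15 pairs of genes that work in the same complex or step were set side by side. The pairs were picked after the single values were known, so their differences are descriptions. In 10 of 15 pairs the exact counting interval of the difference of the log2 ratios excluded 0. The same share for pairs of unrelated genes was not computed, so this count is not a trait of partners. Among single genes with at least 100 counts, 36.7% had an interval wholly below 0 and 30.5% wholly above 0. FANCB minus FANCL was -0.96 (-1.24 to -0.69), a value that rests on the long gene models of both. BRCA2 minus PALB2 was -0.77 (-0.97 to -0.58), and the FPKM of BRCA2 went from 1.84 times that of PALB2 in DMSO to 1.08 times in L1. FANCC minus FANCE, neighbours in the core complex, was -0.48 (-0.70 to -0.26). EXO1 minus RBBP8 was -0.45 (-0.59 to -0.31), and BARD1 minus BRCA1 was -0.42 (-0.58 to -0.27). In each of these pairs 1 partner was well below the other.

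Smaller differences were found for XRCC2 minus RAD51C (-0.31, from -0.46 to -0.16), CHEK1 minus ATR (-0.30, from -0.44 to -0.15), PMS2 minus MSH6 (-0.25, from -0.43 to -0.07) and RAD50 minus NBN (-0.23, from -0.38 to -0.08). FANCI minus FANCD2, the partners of the clamp, was -0.11 (-0.19 to -0.03). The interval included 0 for XRCC3 minus RAD51C (-0.16, from -0.32 to 0.0075), FANCA minus FANCG (-0.13, from -0.33 to 0.06), CHEK2 minus ATM (-0.07, from -0.19 to 0.06), BLM minus WRN (-0.06, from -0.17 to 0.04) and CLSPN minus TOPBP1 (0.08, from -0.01 to 0.17). For those 5 pairs no difference was detectable at this depth, which does not show that the partners moved alike.

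**Figure D3:**
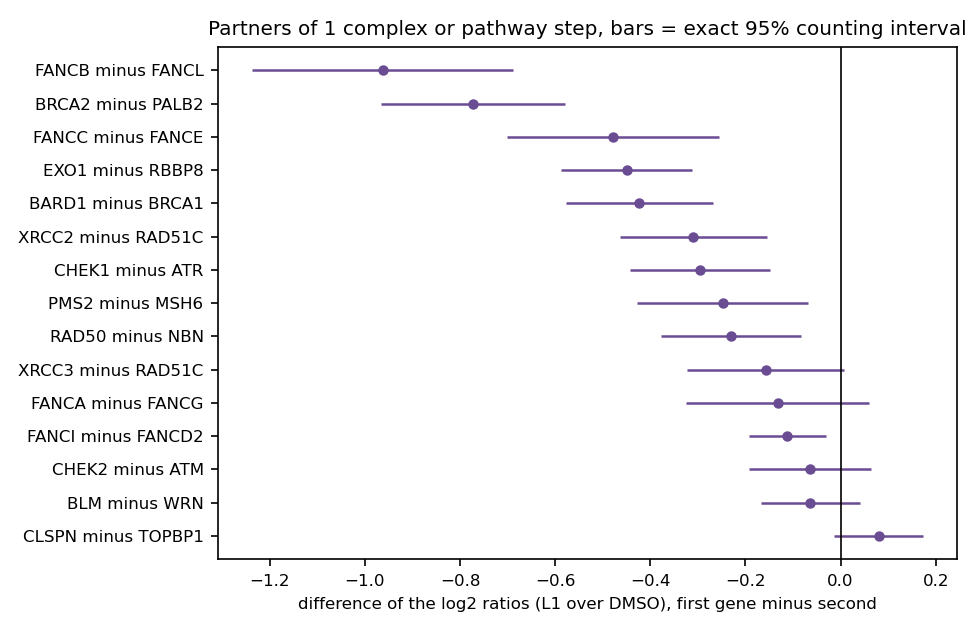
Difference between the log2 ratios (L1 over DMSO) of both partners of 15 pairs, first gene minus second, with exact 95% counting intervals as bars. FANCB minus FANCL is lowest at -0.96, and 10 of the 15 intervals exclude 0. The share for unrelated gene pairs was not computed.

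In 9 members a gene with at least 100 counts started head to head within 1000 bases, so that both are read outward from 1 shared stretch of DNA. RAD51AP1 at -0.83 had C12orf4 as its neighbour, which went from 1404 counts to 1125 under L1 and had a ratio of -0.11 (-0.22 to 0.0076). FANCB at -0.76 faced MOSPD2, with 376 and 309 counts, a log2 ratio of -0.07 (-0.29 to 0.15). In both pairs the repair gene was lower than its neighbour beyond counting error. The outer bound of BRCA1, at -0.07, faced the autophagy receptor gene NBR1, which had 2270 and 2721 counts, a log2 ratio of 0.47 (0.39 to 0.56). Whether the BRCA1 transcripts in these cells start at that bound was not tested.

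FANCD2 at -0.31 faced the pseudogene CIDECP, with 126 and 180 counts (0.73, from 0.39 to 1.07). XRCC3 at -0.12 faced ZFYVE21 at 0.39 (0.24 to 0.54), PALB2 at -0.12 faced DCTN5 at 0.15 (0.08 to 0.22) and FANCM at -0.26 faced FKBP3 at -0.05 (-0.14 to 0.03). ATM at -0.12 and NPAT, the histone gene activator, at -0.07 (-0.16 to 0.02) start within each other's bounds, and PMS2 at -0.14 faced AIMP2 at -0.22 (-0.34 to -0.10). The repair gene had the lower ratio in every pair except PMS2 and AIMP2. The intervals of both genes overlapped for ATM with NPAT, FANCM with FKBP3 and PMS2 with AIMP2. Beside this, 85.3% of the members and 53.6% of all genes with at least 100 counts lay below 0, so a lower repair gene is not particular to these pairs.

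**Figure D4:**
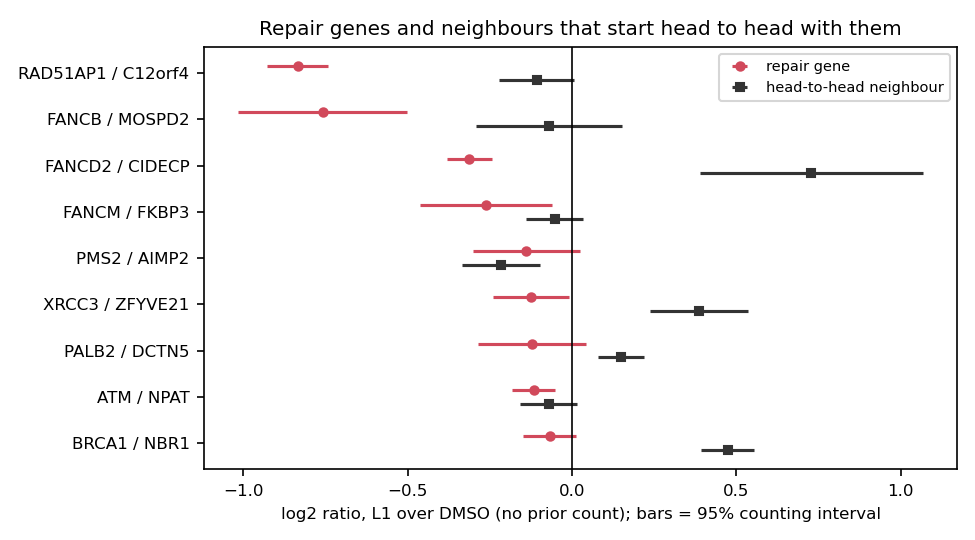
Log2 ratio (L1 over DMSO) of 9 repair genes (red circles) and of the gene head to head with each (dark squares). Starts are the outer gene bounds, and bars are 95% counting intervals. RAD51AP1 and FANCB lie at -0.83 and -0.76 while their neighbours lie at -0.11 and -0.07.

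Other repair and cell cycle genes were taken from lists written from general knowledge. The 46 other recombination and Fanconi genes had a median of -0.11, with 28 below 0. At least 2-fold lower among them were EME2, a nuclease partner of MUS81, with 541 and 59 counts (-2.98), and RTEL1, a helicase of telomeres, with 799 and 229 (-1.59, but -0.10 when summed over a locus of 3 overlapping genes on the same strand). DNA2, the resection nuclease that acts beside EXO1, had 1938 and 896 counts (-0.90). GEN1, a resolvase of recombination junctions, stood the other way with 383 and 1584 counts, a log2 ratio of 2.26 (2.099 to 2.43). BRCC3 lay at 0.54, and SLX1A at 0.50, or -0.05 when its counts were summed over a locus of 3 overlapping genes.

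The 24 other checkpoint genes had a median of -0.09, with 18 below 0. RIF1, which protects broken ends from resection, had 6956 and 2768 counts (-1.12), RHNO1, a partner of the ATR activating clamp, had 1447 and 478 (-1.38, or -0.73 summed with TULP3), and the phosphatase CDC25B lay at -0.80. The highest were ATRIP, the partner of ATR, at 0.36, RNF8 at 0.30 and PPM1D at 0.27. ATR itself lay at 0.10, with an interval (-0.03 to 0.23) that included 0. ATRIP overlaps TREX1 on the same strand over 27.9% of its exonic bases, and lay at 0.44 when summed with it.

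The other repair pathways were centred nearer to 0 than the 34 members. The 20 end joining genes had a median of -0.09 with 12 below 0, and ran from LIG3 (-0.38), DCLRE1C (-0.35) and XRCC5 (-0.28) to XRCC6 (0.31), NHEJ1 (0.51) and the ligase gene LIG4 (0.82). The 5 other mismatch repair genes had a median of -0.07, 3 of them below 0, with MSH3 at -0.28, MLH3 at -0.07 and PMS1 at 0.10. The 34 excision repair genes had a median of -0.04 with 20 below 0. Among them the glycosylase genes NEIL2 (-1.11) and NEIL3 (-0.86) were low, the abasic site endonuclease gene APEX1 (0.78) and SMUG1 (0.64) were high, and GTF2H4 lay at 0.75 and ERCC5 at -1.13. Summed with overlapping genes, GTF2H4 lay at 0.29 and ERCC5 at 0.023. No test compared these lists with the members.

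The 20 E2F and DREAM factors had a median of -0.05 with 10 below 0. Among them E2F8 (-1.03) and E2F7 (-0.70), which encode atypical E2F repressors, were lowest, and E2F4 (0.49), LIN37 (0.44) and E2F6 (0.21) were highest.

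Among these repair and cell cycle lists, that of replication and G1/S genes was the one whose median lay below that of the members. Of its 42 genes 40 were below 0, with a median of -0.32, and 37 had an interval wholly below 0. POLD3, a subunit of polymerase delta, had 1668 and 506 counts (-1.51), TYMS, the thymidylate synthase gene, lay at -0.75 and CCNE1, which encodes cyclin E, at -0.74. GINS1 (1.04) and RFC2 (0.48) were its only genes above 0, and MCM7 lay at -0.00098 (0.049 when scaled by total counts). The 30 mitosis and G2/M genes had a median of -0.09 with 17 below 0. They spread in both directions, from TOP2A (-0.79), UBE2C (-0.59) and AURKB (-0.57) to CDC20 (0.73), CCNB1 (0.76) and KIF20A (0.76). The part of the cell cycle distribution in the repair gene ratios was not tested.

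**Figure D5:**
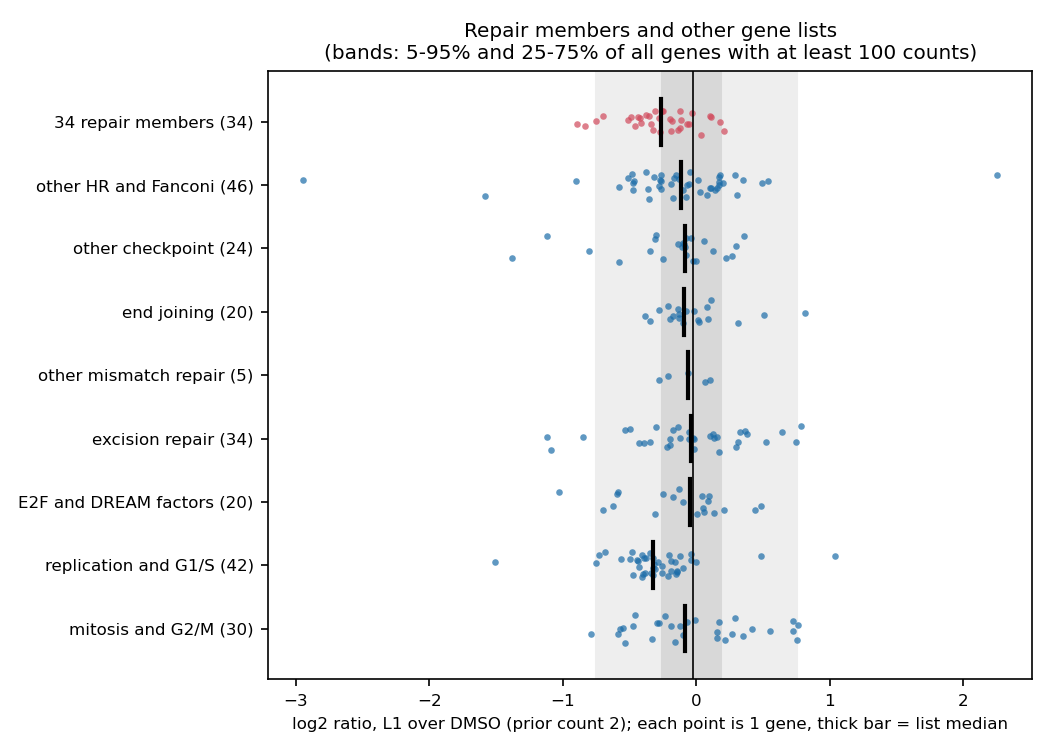
Log2 ratio (L1 over DMSO, prior count 2) of each gene in the 34 repair members and in 8 other lists, with the number of genes with at least 10 counts in parentheses and thick bars at the medians. The grey bands span the 5th to 95th and 25th to 75th percentiles of all genes with at least 100 counts and the thin line their median. The repair members have a median of -0.27 and the replication and G1/S genes -0.32.

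Some members share sequence or exons with other genes. Of the 31-base words of RAD50, 78.6% also occurred in transcripts of another gene, mainly a readthrough gene on the same strand, and the shares were 34.2% for PMS2, 14.6% for CHEK2 and 12.4% for FANCD2. BRCA1 overlaps AC060780.1 on the same strand over 1.31% of its exonic bases, and that gene had 185 counts in DMSO and 919 in L1 (2.53). Summed with overlapping genes on its strand, BRCA1 moved to 0.33 and CHEK1, which overlaps STT3A, to 0.020. RAD50 moved to 0.061 over a locus chained through overlaps, which can hold genes that do not overlap RAD50 itself. The gene that directly overlaps RAD50 on its strand, AC116366.3, had 25 counts in DMSO and 4 in L1 (-2.43). On the opposite strand, exons of KLC1 cover 76.7% of XRCC3, those of LRRC41 cover 25.1% of RAD54L, those of ZNF276 cover 23.6% of FANCA, and those of VRK2 and AC007250.1 cover 19.7% of FANCL. Exons of FBXO11 cover 16.2% of MSH6, and those of GAS2 cover 11.3% of FANCF. KLC1 lay at 0.18, LRRC41 at 0.02, ZNF276 at 0.11, VRK2 at -0.36 and FBXO11 at 0.28. Whether counting used the strand is not given in the sources used here, and these genes' values are uncertain to that extent.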

How the data were processed

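RNA was measured in HEL cells exposed for 24 h to 1 µM of L1 or to DMSO at 0.5%, and the treatment label gave the groups, each of 1 library. The submitters' processing notes name fastp 2.0, HISAT2 2.1.0, StringTie and the build hg38, and the paper names Illumina paired-end sequencing. The counting program, annotation and strand setting are not given in the sources used here. The authors deposited raw read counts per Ensembl gene, without normalization. FPKM tables deposited beside them list 13924 genes, all those that pass 1 CPM in each library. These values equal the TMM-scaled counts divided by a gene length.

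Scaling used edgeR 4.0.16 (TMM) in R 4.3.3 and, as an alternative, the size factors of DESeq2 1.42.0. Other steps used Python 3.11.15, pandas 2.3.3 and scipy 1.17.1. Log2 ratios of L1 over DMSO were computed without a prior count for single genes, and with a prior count of 2 for counts past a threshold and medians. A gene was kept when its higher library reached 10 counts. Positions and overlaps came from GENCODE release 29 (GRCh38), which held 58254 of the 61806 gene identifiers, and 96.9% of the genes kept had a GC content and length for the trend fitted with mgcv 1.9.3. Promoters came from RefSeq.

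Named genes were all 34 members and, in each companion list, the 3 highest and the 3 lowest genes with at least 100 counts, apart from some genes and a list left out of the text. The members and lists were chosen with earlier results of these data known. Alternatives were other scalings, prior counts and filters, FPKM, overlapping genes summed, a GC and length correction, and the whole interval past 2-fold. Overlapping genes were summed over loci chained by exon overlap on the same strand. Leaving out members with shared sequence was added after the data were seen. The ratio and interval code was tested on simulated data.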

Additional observations from a re-analysis of the deposited data

How the results depend on the processing

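Across the alternatives, 0 of the 34 repair genes reached 2-fold in either direction in every setting, 3 to 4 were at least 1.5-fold lower and 0 at least 1.5-fold higher. The number below 0 ran from 26 to 29 of 34 (26 with overlapping genes summed), and was 21 of the 26 members left without those with shared sequence or same-strand overlap, a setting chosen after seeing the data. The median ran from -0.33 to -0.22. Of the members' single values under the alternatives, 231 stayed within the counting interval, 6 left it without a called change of sign and 1 turned. With overlapping genes summed, CHEK1 went to 0.020, and among the other genes SLX1A went to -0.051, ERCC5 to 0.023 and TIGAR to -0.033. BRCA1 at 0.33 and RAD50 at 0.061 in that setting also changed sign, from values whose intervals included 0. For RAD50 the locus was a chain that reaches beyond the gene overlapping it directly. With log2(FPKM + 1), BRCA2 lay at -0.71, FANCB at -0.31 and FANCC at -0.25, since the pseudocount shrinks low values. No paired analysis was possible because there is a single library of each kind. Depth limits FANCB most, at 374 and 191 counts, and the spread between cultures is unknown for every gene.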
